A study of Mus musculus with 2 samples.

Results

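Brain endothelial cells, the lining cells of the blood vessels, were examined among cells sorted from mouse brain for a Nestin-GFP reporter. A cell was taken as a brain endothelial cell when the summed unique molecular identifiers (UMIs, which count single RNA molecules) of Cldn5, Flt1 and Pecam1 were at least 5 and exceeded the sum of the mural genes Vtn, Rgs5, Pdgfrb and Atp13a5. This rule chose 317 of 4151 kept brain cells, or 7.64% (95% Clopper-Pearson interval 6.85 to 8.49%). Kept cells had more than 200 and fewer than 4000 genes and under 40% mitochondrial UMIs. The levels of those 7 genes chose the cells and are therefore no result, and the comparison with the remaining brain cells is given as a description.

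The endothelium of the brain forms the blood–brain barrier. Its cells are sealed by tight junctions, carry out little vesicular transport and lack fenestrae, so that nutrients enter the brain through membrane transporters and many drugs are pumped back into the blood by ATP-driven exporters. Wnt ligands from neural cells, acting through β-catenin, are known to induce and maintain this state. Along the vessel the endothelium changes from arterial through capillary to venous, with gradients of gene expression known as zonation.

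The study sorted Nestin-GFP+ cells to search for neural stem cells, and endothelial cells entered the sort along with them. Both libraries came from adult Nestin-GFP mice aged about 6 weeks, in which GFP is driven by Nestin regulatory elements. Whole brain or lung was minced and trypsinized, GFP+ cells were sorted, and 1 droplet 3′ library was made per tissue. The labels name C57BL/6 as the strain, whereas the methods name CD1 animals and CD1 crosses with C3H as the stock for transgenic breeding, and no treatment is named. The sort decided which endothelial cells were seen, so their share among the sorted cells is not their share of the brain. With 1 library per tissue there were no replicates and no test was possible. Tissue and library cannot be told apart in the brain and lung comparison, and every interval given here covers counting error only.

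The groups set beside the 317 endothelial cells were 248 brain mural cells, chosen by the mirror image of the rule, all 3834 other kept brain cells and 581 lung endothelial cells chosen by the same rule among 5608 kept lung cells. The 317 cells held 1260652 UMIs, with a lowest, median and highest count per cell of 690, 3855 and 10710 and a median of 1962 genes. The median was 3073 UMIs in mural cells, 4238.5 in the other brain cells and 5554 in lung endothelial cells. Levels are given as counts-per-million (CPM), a gene's UMIs over all UMIs of a group on the usual scale, with 95% Poisson intervals in parentheses, and 1 UMI equalled 0.793 CPM in the endothelial cells. The brain and lung libraries shared 15 barcodes, of which 1 belonged to an endothelial cell.

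The cell type label was checked against 2 markers outside the rule. Mfsd2a, the lysophospholipid carrier of the brain endothelium, had at least 1 UMI in 63.4% of the endothelial cells, and Slc22a8, an organic anion transporter, in 78.9%. Either marker was seen in 275 cells and both in 176, while the 42 cells with neither were shallow, with a median of 2088.5 UMIs. After every cell was thinned to 1000 UMIs, 29.3% of 314 endothelial cells kept a Mfsd2a UMI (24.3 to 34.7%), compared with 0.823% of mural cells, 9.92% of astroglial and stem cells, 0.394% of neuroblasts and 0 of 581 lung endothelial cells (3 counts would be 0.516%). Neuroblasts, with a median of 4555 UMIs, should lack the gene and give the background. Slc22a8 separated endothelial from mural cells less well. It was kept in 38.9% of thinned endothelial cells and 26.3% of mural cells (unthinned 61.7%), although Slco1a4, which had 2184 CPM in endothelial cells, was kept in only 2.88% of mural cells. The mural level of Slc22a8 was 402 CPM (363 to 444), but 146 of the 248 mural cells also carried 3 or more UMIs of fibroblast markers, and the level was 318 CPM in the other 102, a split chosen after the values were seen. Mfsd2a and the endothelial genes described next went with the label, and Slc22a8 did so less specifically.

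**Figure D1:**
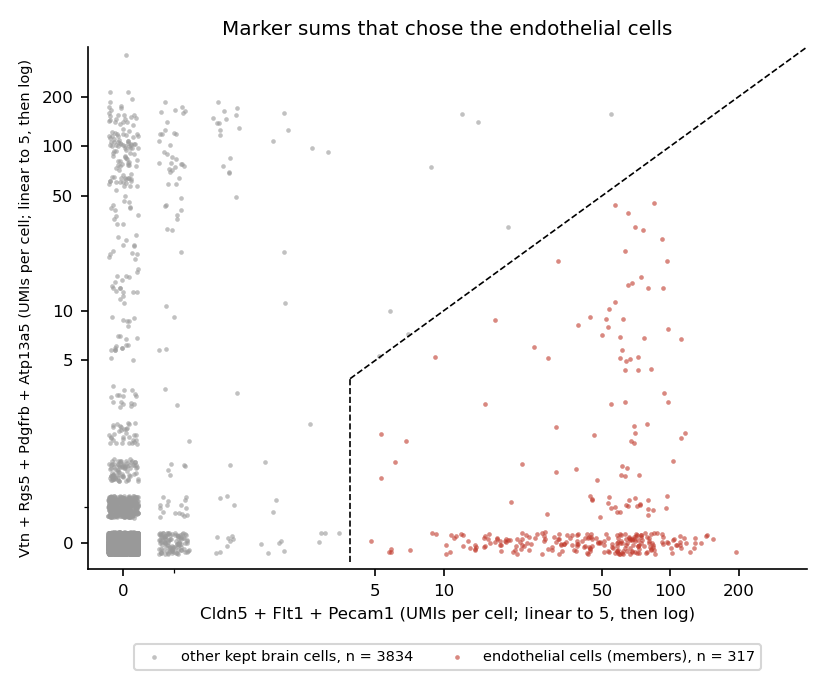
Each point is 1 kept brain cell, with the summed UMIs of Cldn5, Flt1 and Pecam1 on the x axis and of Vtn, Rgs5, Pdgfrb and Atp13a5 on the y axis, both linear to 5 and logarithmic beyond, and the dashed lines mark the rule. The 317 endothelial cells lie to the right of 5 UMIs with a median sum of 57, and few cells lie near either line.

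Few endothelial cells lay near the threshold. Their summed Cldn5, Flt1 and Pecam1 UMIs had a lowest value of 5, a median of 57 and a highest value of 194, and 12 cells lay under 10. Just inside, 3 cells had exactly 5 UMIs and carried 0, 8 and 10 UMIs of 25 further endothelial genes. Just outside, 5 cells had 4 UMIs, exceeded their mural sum and carried 4 to 33 UMIs of those genes (median 5). A further 8 cells passed 5 UMIs but not their mural sum, and 7 barcodes that met the rule fell outside the kept range, 6 of them at 4000 genes or more.

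Promoter windows are shown first for 3 transporters of the barrier, because few of their UMIs fell in the other brain cells and because each window holds a match to a motif of a factor family known in brain endothelium. Each window spans 250 bases before to 50 bases after the annotated gene start in RefSeq (GRCm38.p6) and is written 5′ to 3′ on the gene's strand, with the match in capitals. Slco1a4, the organic anion transporter, has its window at chr6:141856171-141856470 on the minus strand with a SOX match. Abcb1a, the P-glycoprotein drug exporter, has its window at chr5:8566841-8567140 on the plus strand with a forkhead match on the opposite strand. Slc19a3, the thiamine transporter, has its window at chr1:83038399-83038698 on the minus strand with a LEF/TCF match on the opposite strand.
Slco1a4: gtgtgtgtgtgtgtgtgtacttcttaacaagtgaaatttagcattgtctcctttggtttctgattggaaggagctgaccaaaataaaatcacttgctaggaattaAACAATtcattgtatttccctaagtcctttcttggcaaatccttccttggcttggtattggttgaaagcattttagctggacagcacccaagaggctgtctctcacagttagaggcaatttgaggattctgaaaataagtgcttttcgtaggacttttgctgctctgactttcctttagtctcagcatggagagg
Abcb1a: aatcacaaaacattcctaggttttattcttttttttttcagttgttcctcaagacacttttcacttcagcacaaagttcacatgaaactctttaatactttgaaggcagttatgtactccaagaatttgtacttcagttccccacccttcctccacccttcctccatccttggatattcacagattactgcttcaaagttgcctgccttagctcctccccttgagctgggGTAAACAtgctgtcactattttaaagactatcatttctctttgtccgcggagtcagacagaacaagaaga
Slc19a3: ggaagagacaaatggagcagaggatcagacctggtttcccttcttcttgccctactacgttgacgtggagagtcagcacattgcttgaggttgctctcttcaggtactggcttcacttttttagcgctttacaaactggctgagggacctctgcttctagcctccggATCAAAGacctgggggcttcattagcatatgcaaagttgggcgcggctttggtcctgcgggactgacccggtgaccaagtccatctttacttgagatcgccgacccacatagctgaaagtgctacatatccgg

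The motifs searched on both strands were CTTTGAT (LEF/TCF), TGTTTAC (forkhead), CCGGAA (ETS) and AACAAT (SOX), and no printed window held more than 1 match. Among all 32851 RefSeq windows, 3.73% held the LEF/TCF letters, 3.65% the forkhead letters, 14.9% the ETS letters and 10.7% the SOX letters. Of 30 windows that 19 of the transporter genes had, 2 held LEF/TCF, 1 held forkhead, 5 held ETS and 2 held SOX letters. Of 19 windows of 13 general endothelial genes the counts were 1, 0, 1 and 3, and of 15 windows of 10 Wnt and barrier regulators 0, 1, 1 and 0. No share of so few windows can be read against the share of all windows. The windows of Cldn5, Mfsd2a, Slco1c1, Gkn3 and Slc38a5 held none of the 4 motifs. A match is a string of letters, and binding was not measured.

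The transporters of the barrier were examined next. Summed over 26 genes they held 16629.5 CPM in the endothelial cells and 930.5 CPM in the other brain cells, a ratio of 17.9 (17.5 to 18.2), and 21 of 24 genes with enough UMIs to compare were at least 4-fold higher. Over all genes compared, 5.93% were at least 4-fold higher and 18.6% at least 4-fold lower in the endothelial cells, with a median ratio of 0.775 against 28.8 for the transporters. A median of 17 of the 26 transporters had a UMI in an endothelial cell (3 to 24), compared with a median of 2 in the other brain cells.

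The nutrient carriers came first in this group. Slc2a1, the glucose transporter GLUT1, had 1713 CPM (1642 to 1787) in the endothelial cells and 55.4 CPM in the other brain cells, and its lowest, median and highest UMIs per endothelial cell were 0, 5 and 29. Slc7a5 and Slc3a2, the subunits of the large neutral amino acid carrier, had 635 and 817 CPM, compared with 19.8 and 191 CPM. Slc16a1, which carries lactate and ketone bodies, had 903 CPM (851 to 957) against 23.2 CPM. Slc2a1 RNA was kept in 80.6% of the endothelial cells thinned to 1000 UMIs (unthinned 95.3%) and in 0.542% of thinned neuroblasts. Unthinned, Slc16a1 had a UMI in 75.1% of endothelial cells and 2.38% of the deeper neuroblasts. Slc7a1, for cationic amino acids, had 532 CPM and the taurine carrier Slc6a6 1832 CPM, compared with 21.4 and 52.6 CPM outside. Slc38a5 and Slc38a3 exchange glutamine. Slc38a5 had 481 CPM (443 to 521) and 0.767 CPM outside, whereas Slc38a3 had 183 and 43.1 CPM, with 170.4 CPM in astroglial and stem cells.

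The organic anion carriers of the Slco family differed in their contrasts. Slco1a4, the most abundant of them, had 2184 CPM (2103 to 2267) in the endothelial cells, 52.3 CPM in mural cells and 5.20 CPM in all other brain cells, with per-cell UMIs of 0, 8 and 41. Thinned to 1000 UMIs, 84.7% of endothelial cells (80.2 to 88.5%) and 0.197% of neuroblasts kept a Slco1a4 UMI. Slco1c1, the thyroxine transporter OATP14, had 1733 CPM (1661 to 1807) in endothelial cells, but astroglial and stem cells also held 465 CPM, and 29.8% of them kept a UMI after thinning compared with 78.7% of endothelial cells. Slco2b1, an organic anion transporter, had 194 CPM, compared with 5.48 CPM outside. Mfsd2a had 402 CPM (368 to 439) in endothelial cells, 176 CPM in oligodendrocyte lineage cells and 121 CPM in astroglial and stem cells. Its ratio over the other brain cells was 8.26-fold (7.39 to 9.22).

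The exporters and the micronutrient and receptor genes completed the list. Abcb1a had 1025 CPM (969.7 to 1082) and the exporter Abcg2 (BCRP) 737 CPM (690.3 to 786), compared with 2.36 and 15.0 CPM in the other brain cells, and Abcb1a had a UMI in 92.7% of endothelial cells and in 0.571% of neuroblasts. Slc19a3 had 68.2 CPM (54.6 to 84.2) and no UMI in mural or lung endothelial cells. The zinc transporters Slc30a1 and Slc39a8 had 238 and 148 CPM. Tfrc, the transferrin receptor through which iron enters, had 585 CPM (543 to 628) against 33.7 CPM. The lipoprotein receptor Lrp8 had 195 and 146 CPM. The insulin receptor Insr stayed under 4-fold, with 137 and 49.8 CPM.

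**Figure D2:**
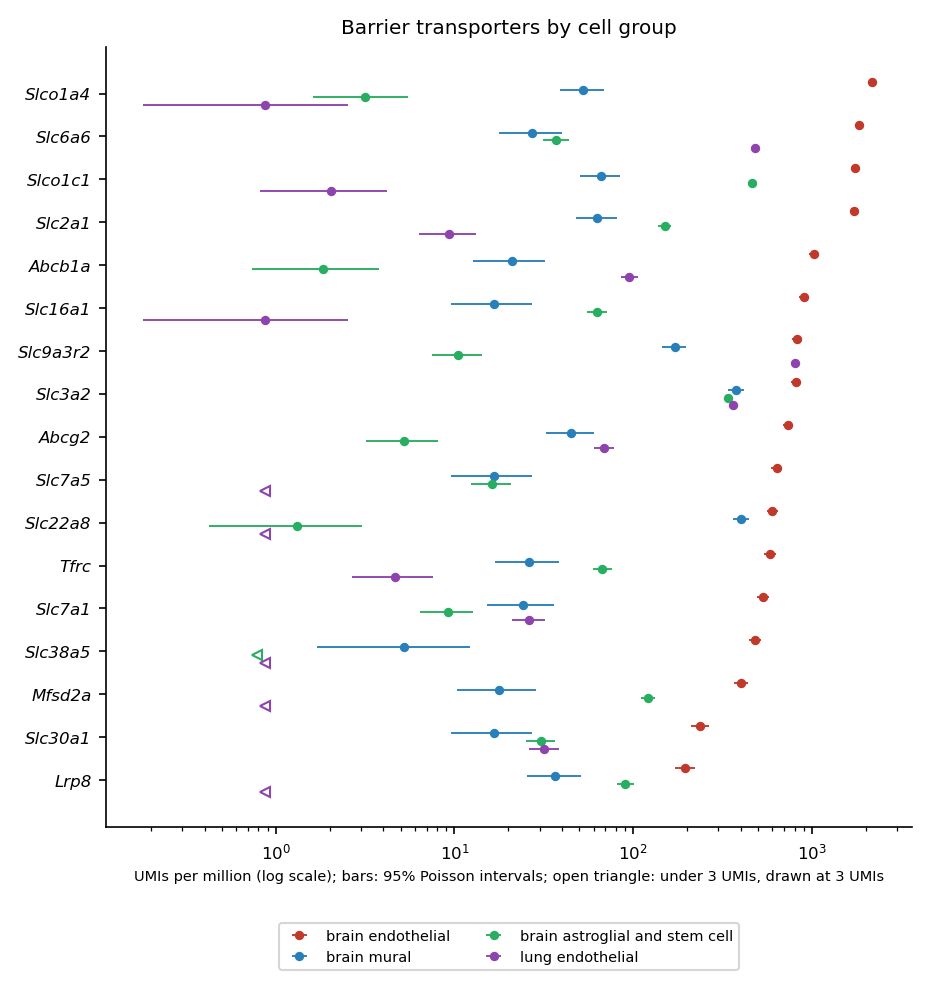
Levels in CPM on a logarithmic axis, with 95% Poisson intervals, of 17 barrier transporter genes, in 4 cell groups, where an open triangle marks fewer than 3 UMIs and is drawn at 3. Slco1a4 is at 2184 CPM in brain endothelial cells and under 100 CPM in each of the other groups, whereas Slco1c1 also reaches 465 CPM in astroglial and stem cells and Slc22a8 402 CPM in mural cells.

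General endothelial genes outside the rule were also higher. All 23 of the genes compared were at least 4-fold higher than in the other brain cells (list median 165-fold), and the 25 listed genes summed to 23358.5 CPM against 192 CPM. The angiopoietin receptors Tek and Tie1 had 399.8 and 212 CPM compared with 1.15 and 0.876 CPM, and the vascular cadherin Cdh5 520.4 and 3.18 CPM. The transcription factors Erg, Sox17 and Sox18 had 121, 434 and 363 CPM, all under 1 CPM outside. By the depth of the cells, the list held 22964 CPM in the 106 shallowest endothelial cells, 24954 CPM in the middle 106 and 22473 CPM in the 105 deepest. The transporters held 19582, 17162 and 15344 CPM in the same 3 sets. Markers of other classes moved more, with neuroblast markers at 246, 533 and 1171 CPM and oligodendrocyte lineage markers at 729.6, 394 and 275 CPM.

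The genes with the largest ratio over the other brain cells were then listed without reference to any list. The first was Gkn3, at 249.9 CPM (223 to 279) and 4 UMIs in 3834 other cells, although its UMIs fell mostly in a subset of the endothelial cells, as given with the arterial cells. Eltd1, an adhesion receptor of vessels, had 727 CPM, the adhesion molecule Icam2 360.1 CPM, the apelin receptor Aplnr 113 CPM and endothelin 1, Edn1, 266 CPM, all under 1 CPM outside. Ly6a and Ly6c1, which encode surface proteins of the Ly6 family, had 2760.5 and 3532 CPM and were 593-fold and 457-fold higher. The list also held AU021092, Gm694, Cyyr1, Cd93, Ctla2a, Tmem252, Degs2, Gata2, Ptprb and Clic5, with ratios of 346 to 679. Hbb-bt, a haemoglobin gene of red cells, was second at 970.1 CPM and is treated with the haemoglobin genes. In the other direction, Hes5, a Notch target of neural stem cells, was at 3 UMIs, Cspg5 at 10 UMIs, the fibroblast proteoglycan Dcn at 0 UMIs and the dividing-cell genes 2810417H13Rik, Cdca8 and Birc5 at 4, 3 and 1 UMIs in the endothelial cells, compared with 106 to 500 CPM in the other brain cells.

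Brain mural cells, chosen by the mirror rule, were compared next. They held pericyte genes such as Kcnj8 (844 CPM) and Abcc9 (603 CPM), few UMIs of the smooth muscle genes Acta2 (19) and Myh11 (18), and fibroblast genes, with Dcn at 2217 and Col1a1 at 736 CPM, so the group was not pericytes and smooth muscle alone. Over all genes compared with mural cells, 7.19% were at least 4-fold higher and 7.64% at least 4-fold lower in the endothelial cells, with a median ratio of 1.06. Of the transporters, 21 of 24 were higher and none lower (list median 21.1), and of the general endothelial genes 22 of 24 were higher (list median 31.4). Only part of the basement membrane genes separated the pair. The listed genes summed to 9119 CPM in endothelial and 9702 CPM in mural cells, with Lamb1, Lamc1 and Nid1 at least 4-fold lower in endothelial cells and Lama5 and Itga6 at least 4-fold higher. Against the 102 mural cells with fewer than 3 fibroblast UMIs, Lamb1, Lamc1 and Nid1 had ratios of 0.0550, 0.217 and 0.171, and the basement membrane sum was 8838 CPM in those cells. Mural genes outside the rule held 121 CPM in the endothelial cells and 354 CPM in all other brain cells, and 18 endothelial cells (5.68%) carried 3 or more of those UMIs.

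Wnt pathway and barrier regulators were higher in the brain endothelial cells. They summed to 3489 CPM compared with 365 CPM in the other brain cells, and 11 of 17 compared genes were at least 4-fold higher and none lower (list median 12.2). Among the receptor genes, Fzd4 had 30.1 CPM (21.3 to 41.4), Fzd6 207 CPM, the co-receptor Lrp5 37.3 CPM, Lrp6 83.3 CPM and the Fzd4 partner Tspan12 136 CPM. Adgra2 and Reck, which encode the Wnt7 co-receptor pair, had 84.9 and 19.8 CPM. Of the nuclear mediators, Lef1 had 417 CPM (382 to 454) and Tcf7 92.0 CPM, compared with 9.20 and 3.61 CPM in the other brain cells. The feedback targets Apcdd1, Nkd1 and Notum had 61.1, 321 and 91.2 CPM, whereas the feedback gene Axin2 had 98.4 CPM and a similar 132 CPM in mural cells. The transcription factors Foxq1 and Foxf2 had 627 and 149.9 CPM, of which Foxf2 was also at 75.3 CPM in mural cells.

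The junction genes were less separated. Of 11 compared genes, 5 were at least 4-fold higher than in the other brain cells and 2 lower, with a list median of 3.47. Over all genes compared, 5.93% were higher and 18.6% lower, so the share of lower junction genes was near that of all genes. Ocln, which encodes the tight junction protein occludin, had 371 CPM (338 to 406) against 5.75 CPM, the scaffold Tjp1 (ZO-1) 551 against 78.7 CPM and Cgnl1 327 against 8.49 CPM. Jam3 and Gja1, at 19.0 and 77.7 CPM, were lower than the 93.9 and 370.0 CPM of the other cells. Cldn1 and Cldn3 had 0 UMIs in the endothelial cells, which allows up to 2.38 CPM, whereas Cldn5 is a gene of the rule. The vesicular transport genes held 1994 CPM compared with 349 CPM in the other brain cells, with 6 of 9 higher, among them Cav1 at 274 CPM.

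Nestin was measured because its regulatory elements drove the sort. Nes had 352 CPM (320.2 to 387) in the endothelial cells, 121 CPM (100.3 to 146) in mural cells and 44.9 CPM (41.8 to 48.0) in the other brain cells. Its lowest, median and highest UMIs per endothelial cell were 0, 1 and 10, and 61.5% of endothelial cells had at least 1. Thinned to 1000 UMIs, 27.1% of endothelial cells (22.2 to 32.3%) kept a Nes UMI, compared with 14.4% of mural cells (10.2 to 19.5%), 16.2% of lung endothelial cells (13.3 to 19.4%), 4.44% of neuroblasts, 3.08% of astroglial and stem cells, 1.42% of oligodendrocyte lineage cells (0.461 to 3.27%) and 2 of 41 microglia. The microglia, with a median of 4025 UMIs, are a cell type without the gene, and their share had an interval of 0.596 to 16.5%, so low shares cannot be told from background. The endothelial share lay above that interval and above the neuroblast share, whose median depth was 4555 UMIs. GFP protein and its RNA were not measured here. Synm, which encodes the filament protein synemin, followed a different order, with 280.0 CPM (252 to 311) in endothelial, 25.1 CPM in mural and 402 CPM in ependymal cells. Vim had 1053 CPM and Gfap 2 UMIs in the endothelial cells.

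**Figure D3:**
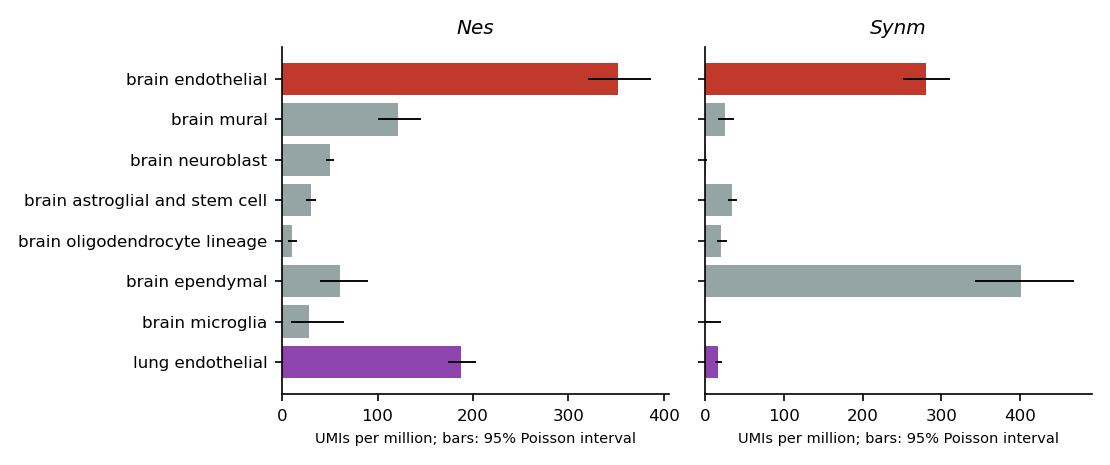
Bars show Nes and Synm levels in CPM from 0, with 95% Poisson intervals, in brain endothelial cells, 6 other brain cell groups and lung endothelial cells. Nes is at 352 CPM in brain endothelial cells and 188 CPM in lung endothelial cells, and Synm is at 280 and 16.3 CPM in the same groups.

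Lung endothelial cells served as endothelium without a blood–brain barrier. Of 8608 genes compared, 3.36% were at least 4-fold higher and 5.88% at least 4-fold lower in brain endothelial cells, with a median ratio of 0.985. The transporters stood at 16629.5 CPM in brain and 2009 CPM in lung endothelial cells, a ratio of 8.28 (8.06 to 8.51), and 20 of 24 were at least 4-fold higher and none lower (list median 57.2). Slco1a4 had 3 UMIs in 581 lung endothelial cells and was 2501-fold (855 to 12133) higher in brain. Slco1c1 was 851-fold (412 to 2118) higher, Slc2a1 184-fold (129.9 to 269.6) higher and Tfrc 126-fold (76.8 to 221) higher. The exporters differed less, since Abcb1a had 95.2 CPM (85.2 to 106) and Abcg2 69.0 CPM (60.5 to 78.4) in lung, 10.8-fold (9.53 to 12.2) and 10.7-fold (9.25 to 12.4) below brain. Slc9a3r2, the scaffold NHERF2, did not separate the tissues, with 827 and 809.9 CPM and a ratio of 1.02-fold (0.950 to 1.10).

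General endothelial genes were closer between the tissues. Of 25 compared, Itm2a, Ly6c1 and Ly6a were at least 4-fold higher in brain and Clec14a at least 4-fold lower (list median 1.22). Itm2a, which encodes a membrane protein, had 4395 CPM (4279.6 to 4512) in brain and 46.3 CPM (39.4 to 54.1) in lung, a 94.9-fold (81.1 to 112) difference, although 13.6% of lung endothelial cells had a UMI. Clec14a had 263 and 1343 CPM, and Cdh5, which stayed under the 4-fold limit, 520.4 and 1223 CPM. Kdr, the main VEGF receptor, had 839 CPM in brain and 286 CPM in lung. The endothelial genes thus divided, and no single direction held for the list.

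Of the Wnt and barrier regulators, 8 of 19 were at least 4-fold higher in brain and none lower (list median 2.59). Lef1 was 95.6-fold (57.4 to 172) higher, Foxq1 539-fold (209.6 to 1983) higher with 4 UMIs in lung, and Foxf2 17.2-fold (11.6 to 26.1) higher. Apcdd1, Nkd1, Notum and Ppard were also among the 8. The receptor Fzd4 and the transcription factor Sox17 had higher levels in lung, at 81.2 and 746 CPM, and the β-catenin gene Ctnnb1 had 375 CPM in brain and 176 CPM in lung. Among the junction genes, Ocln, Cgnl1 and Lsr were higher in brain by 6.02-fold (5.10 to 7.11), 4.02-fold (3.45 to 4.70) and 25.2-fold (12.1 to 60.5), and none of 13 was lower (list median 1.14).

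The genes of permeable endothelium were mostly low in the brain endothelial cells. Of 7 compared, 6 were at least 4-fold lower than in lung. Plvap, which forms the diaphragms of fenestrae and caveolae, had 0 UMIs in brain and 914 CPM in lung, at least 384-fold lower. The tip cell gene Esm1 also had 0 UMIs, and Gpihbp1, the capillary anchor of lipoprotein lipase, had 2 UMIs. Plpp1 and Plpp3, phospholipid phosphatases, were detected at 54.7 and 34.1 CPM against 361 and 244 CPM in lung. Cd24a was the exception, with 55.5 CPM in brain and 68.1 CPM in lung. It is also on the neuroblast list, with 731 CPM in neuroblasts, and had a UMI in 9.15% of brain and 26.5% of lung endothelial cells. The caveolar and vesicular list held 1994 CPM in brain and 4504 CPM in lung, with 2 of 9, Ehd2 and Ehd4, at least 4-fold lower, while Cav1 was 3.68-fold (3.29 to 4.12) lower and just missed that limit. Lyve1, a marker of lymphatic endothelium that is also known in lung capillaries, had 2 UMIs in brain and 808 CPM in lung, and Prox1, the regulator of lymphatic fate, was not among the genes with enough UMIs to compare.

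Ccdc141, a listed capillary gene, was 351-fold (169.5 to 875) higher in brain. In the opposite direction and outside the lists, the water channel Aqp1 had 1 UMI in brain and 1256 CPM in lung, and the fatty acid binding protein Fabp4 and the fatty acid receptor Cd36 had 0 UMIs in brain and 1157 and 495 CPM in lung. Fabp4 came from few lung cells, since 12.7% had a UMI. Pcsk5 and Myzap had 1 UMI each in brain, compared with 531 and 452 CPM in lung. The intermediate filament genes differed as well, with Nes 1.88-fold (1.66 to 2.12) higher and Vim 3.34-fold (3.15 to 3.54) lower in brain.

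Arterial, capillary and venous programmes were then examined among the endothelial cells. Each cell was placed by known anchor genes. An arterial cell had at least 2 UMIs of Bmx, Gkn3, Efnb2, Sema3g and Vegfc and more of them than venous anchors, and a venous cell had at least 2 UMIs of Slc38a5, Nr2f2, Vcam1, Ackr1 and Il1r1 and more of them than arterial anchors. The remaining cells with at least 2 UMIs of Mfsd2a and Tfrc were called capillary. This gave 49 arterial (15.5%), 89 capillary (28.1%) and 133 venous cells (42.0%), and 46 cells (14.5%) were left unassigned. The counts depended on the anchors, since 160 capillary and 47 venous cells were found without Slc38a5, and 49 and 183 with a single anchor UMI required. Only 3 cells were tied, and 10 had at least 2 UMIs of both arterial and venous anchors. The zones are ranges of a score, not separate types, since 12 cells stood at exactly 2 arterial and 36 at exactly 2 venous anchor UMIs, with 32 and 67 cells at 1. Depth moved with the zones. The median was 3758 UMIs in arterial, 3510 in capillary, 4434 in venous and 1832 in unassigned cells, and the 106 shallowest cells held 24 venous and 29 unassigned cells compared with 63 and 4 in the 105 deepest.

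The anchors chose the zones and their values are a description. Gkn3, at 1592 CPM in arterial and 1.58 CPM in venous cells, had a UMI in 29 of 49 arterial cells. Slc38a5 had 35.6, 110.0 and 867 CPM in arterial, capillary and venous cells, and 129 of 133 venous cells had a UMI of it, so the venous group rested largely on this 1 transporter. Nr2f2, the transcription factor of venous fate, was seen in 64 venous cells. Vcam1 went against its place among the venous anchors, with 107 CPM in arterial and 14.2 CPM in venous cells, and Ackr1 had 1 UMI in all endothelial cells. The capillary anchor Mfsd2a had 402, 618 and 362 CPM in the 3 zones.

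Genes of the arterial programme outside the anchors were measured next. Between arterial and venous cells, 3.02% of 3645 genes compared were at least 2-fold higher and 5.1% at least 2-fold lower in arterial cells, with a median ratio of 0.971. Of 15 listed arterial genes compared, 14 were at least 2-fold higher (list median 3.45), and their sum was 11564 CPM in arterial and 3467 CPM in venous cells, 3.34-fold (3.14 to 3.54). Unc5b, also on the list, had no counts. The median arterial cell held 10532 CPM of these genes, the median capillary cell 4470 CPM and the median venous cell 3282 CPM, and the ranges overlapped, from 2348 to 62587 CPM in arterial and from 459 to 10345 CPM in venous cells.

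Gja4, connexin 37, had 168, 12.9 and 3.16 CPM in arterial, capillary and venous cells, whereas connexin 40, Gja5, had 1 arterial UMI and none in the other zones. The Notch target Hey1 had 173, 42.1 and 12.6 CPM, the Notch ligands Jag1 and Dll4 315 and 158 CPM in arterial cells and 82.2 and 55.3 CPM in venous cells. Alpl, tissue-nonspecific alkaline phosphatase, was 57.9-fold (18.8 to 289.7) higher in arterial than in venous cells, Glul, glutamine synthetase, 6.25-fold (5.26 to 7.44) higher and Tgfb2 4.75-fold (3.41 to 6.65) higher. Glul declined through the zones, with 1993, 883 and 319 CPM, so that capillary cells lay between. Edn1 had 615, 184 and 199 CPM and Sox17 753, 337 and 363 CPM, with capillary and venous levels close together. Fbln2, a matrix glycoprotein, had 43 UMIs in arterial cells and 1 in venous cells, a ratio of 138-fold (23.5 to 5592).

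A single cell bore on several of these values. Mgp, the inhibitor of calcification, had 1159, 35.6 and 17.4 CPM in the 3 zones, but 75 of its 228 arterial UMIs (32.9%) came from 1 cell, which also held 19 of 29 Fbln5 and 12 of 21 Clu UMIs. Without that cell the arterial level of Mgp was 787 CPM, 45.3-fold above venous cells, and Clu fell below the 2-fold limit at a ratio of 1.33. The summed ratio was 3.17 without it. Stmn2, which marks neuroblasts as well, had 529, 116 and 109 CPM and a UMI in 42.9% of arterial cells. The 11 neuroblast markers other than Stmn2 summed to 493 CPM in arterial, 867 CPM in capillary and 506 CPM in venous cells.

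Beyond the arterial list, Igfbp3, an insulin-like growth factor binding protein on the tip cell list, had 42 UMIs in arterial and 1 in venous cells. Egfl8 had 453 CPM in arterial and 23.7 CPM in venous cells and Tm4sf1 was 8.12-fold (7.01 to 9.44) higher in arterial cells, the latter at 3234 against 398 CPM. Gja1, connexin 43, had 183, 61.5 and 25.3 CPM. Arl15, Atp13a3, Cdk19 and Ssfa2 were 6.58-fold to 16.1-fold higher. Gja1 also belongs to the astroglial markers, and the 9 others summed to 142 CPM in arterial, 239 CPM in capillary and 172 CPM in venous cells.

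**Figure D4:**
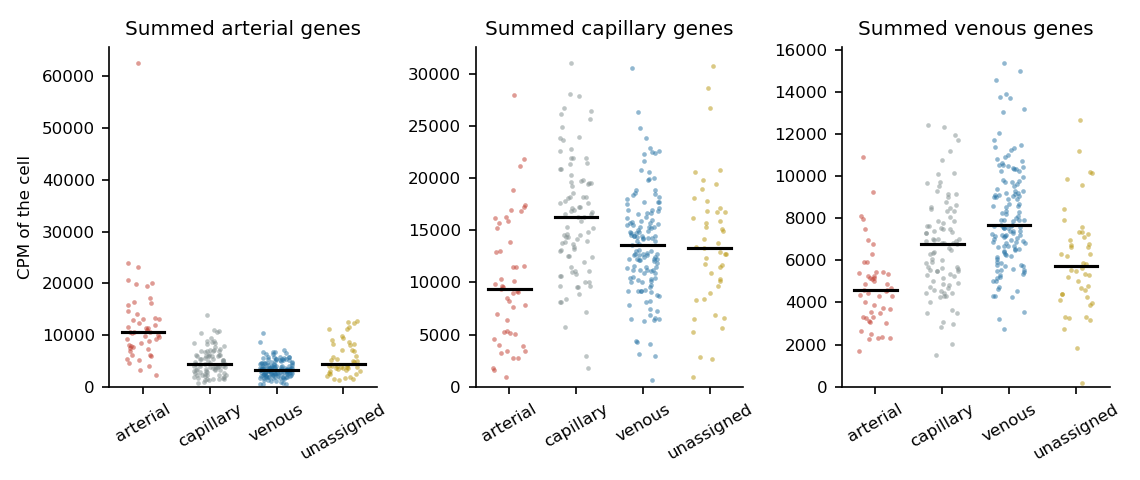
Each point is 1 brain endothelial cell placed by its anchor genes, with its summed UMIs of listed arterial, capillary and venous genes other than the anchors on the y axis, in CPM of the cell, and a black line at the median. The arterial genes separate the arterial cells (median 10532 CPM) from venous cells (median 3282 CPM) more widely than the capillary genes or the venous genes separate any pair of zones.

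The capillary programme was weaker. Against arterial and venous cells together, 0.618% of 5181 genes compared were at least 2-fold higher in capillary cells and 2.28% lower, with a median ratio of 0.989. Of 15 listed capillary genes, 2 were at least 2-fold higher, Cxcl12 and Ivns1abp, and the list median was 1.22, with a sum of 15501 and 12208 CPM (1.27-fold, 1.23 to 1.31). Cxcl12, a chemokine, had 2436, 3611 and 752 CPM in arterial, capillary and venous cells, so that arterial cells shared its high level and venous cells had the low one. Ivns1abp had 96.6, 304 and 131 CPM. Hmcn1, an extracellular matrix protein, had 132, 498 and 371 CPM and Car4, a membrane-bound carbonic anhydrase, 107, 1129 and 1861 CPM, both low in arterial cells only. Between arterial and capillary cells, where 4.37% of 3726 genes compared were at least 2-fold higher and 4.64% at least 2-fold lower in arterial cells, 9 of the 15 capillary genes were lower and 16 of the 18 arterial genes compared were higher in arterial cells, whereas 2 of 15 were at least 2-fold lower in venous cells, where the share among all genes was 1.12%. The listed capillary genes thus marked the contrast with arterial cells more than the contrast with venous cells. Beyond the list, Gm9946 and Atf6 had 27 and 26 UMIs in capillary cells and ratios of 4.03-fold (2.14 to 7.76) and 2.91-fold (1.60 to 5.29).

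Venous genes outside the anchors were compared in the same way. Of 13 listed venous genes compared with arterial cells, 7 were at least 2-fold higher in venous cells, where 5.1% of all genes compared were. The list median of the arterial over venous ratio was 0.484, with a sum of 8159.6 CPM in venous and 4638 CPM in arterial cells, 1.76-fold (1.64 to 1.89). The actin-binding protein Tmsb10 had 509, 1388 and 2459 CPM in arterial, capillary and venous cells and the adhesion protein Flrt2 10.2, 100.3 and 205 CPM. Csrp2 had 264, 612 and 771 CPM and Ctsc, the protease cathepsin C, 30.5, 68.0 and 126 CPM. The levels rose from arterial to capillary to venous cells in each of these 4 genes. Compared with capillary cells, 2.32% of 5096 genes were at least 2-fold higher in venous cells, and 3 of the 13 listed genes, Vwf and Flrt2 among them, passed that limit. Mural markers moved with the zones, with a sum outside the rule's genes of 35.6 CPM in arterial, 51.8 CPM in capillary and 185 CPM in venous cells. Myl9 had 0 arterial and 26 venous UMIs, and Vtn, a gene of the rule, 25.4, 55.0 and 167 CPM. The venous anchor Nr2f2 was itself at 783 CPM in mural and 199 CPM in venous cells. With the cells carrying 3 or more UMIs of any other class left out, 87 venous and 21 arterial cells remained and the venous ratio was 1.65 (1.49 to 1.83).

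Vwf, the clotting factor carrier of large vessels, was not venous alone. It had 325 CPM (251 to 416) in arterial, 80.9 CPM (52.4 to 119) in capillary and 232 CPM (196 to 273) in venous cells, so both larger vessel zones stood above the capillary cells. Other genes higher in venous than in arterial cells included Car4, 17.4-fold (11.3 to 28.3). Gatm, the first enzyme of creatine synthesis, was 7.89-fold (4.22 to 16.7) higher in venous cells. Lphn3 and the cholesterol exporter Abcg1 had 3 arterial UMIs each and ratios of 9.84-fold (3.27 to 48.6) and 7.15-fold (2.35 to 35.5). Inflammatory venule genes were sparse, with 0 UMIs of Sele and 1 of Selp in all endothelial cells, and Icam1 at 16.7 CPM.

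**Figure D5:**
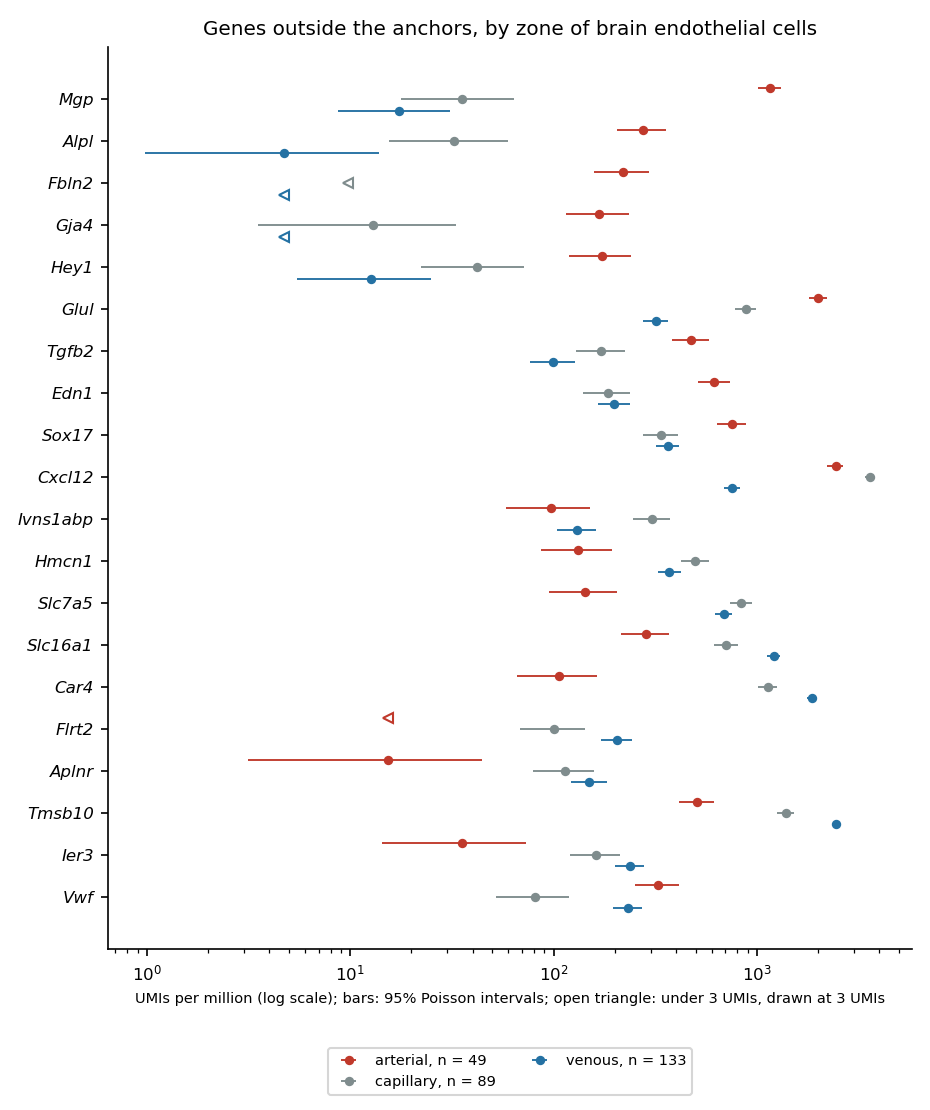
Levels in CPM on a logarithmic axis, with 95% Poisson intervals, of 20 genes in arterial, capillary and venous brain endothelial cells, where an open triangle marks fewer than 3 UMIs and is drawn at 3. Mgp, Alpl and Gja4 are highest in arterial cells, Cxcl12 is at 752 CPM in venous cells and at 2436 and 3611 CPM in arterial and capillary cells, and Tmsb10 rises from 509 to 2459 CPM from arterial to venous cells.

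Some of the barrier genes differed between zones. Without the 3 zone anchors among them, the transporters summed to 14849 CPM in arterial, 15653 CPM in capillary and 15305 CPM in venous cells. With the anchors, 9 of 24 were at least 2-fold lower in arterial than in venous cells and none higher (list median 0.773), where 5.1% and 3.02% of all genes compared were. Slc7a5 had 142, 835 and 686 CPM in arterial, capillary and venous cells, Slc16a1 285, 709 and 1210.3 CPM and Slc22a8 295, 615 and 727 CPM. Tfrc, a capillary anchor, and Slc38a5, a venous anchor, were among the 9 and were part of the choice. Slc3a2, Slc38a3, Slc19a3 and Slc39a8 made up the rest. Slc2a1 and Slc6a6 went the other way without reaching 2-fold, at 1.70-fold (1.52 to 1.89) and 1.72-fold (1.54 to 1.91) higher in arterial cells. Slco1a4, Abcb1a and Abcg2 were nearly level, with 1775, 2298 and 2259.5 CPM, 1032, 964 and 1065 CPM and 661, 786 and 782 CPM.

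General endothelial, Wnt and junction genes differed less between arterial and venous cells, with list medians of 1.1, 0.813 and 1.03. Of 24 general genes, Mmrn2 was at least 2-fold higher in arterial cells and none was lower. Of 16 Wnt and barrier regulators, Sox17 was higher and Apcdd1 lower in arterial cells, the latter with 6 arterial UMIs. Over all genes compared, 3.02% were at least 2-fold higher and 5.1% at least 2-fold lower in arterial cells. The counts of the general and the Wnt list were near those shares. Of 11 junction genes, Lsr and Gja1 were higher. Nes had 427 CPM (341 to 529) in arterial, 359 CPM (295 to 433) in capillary and 329 CPM (286 to 376) in venous cells, with overlapping intervals, whereas Synm had 122, 301 and 330.2 CPM and was 2.71-fold (1.77 to 4.32) lower in arterial than in venous cells.

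Red cell genes, 4 haemoglobin genes and the haem synthesis enzyme Alas2, appeared in few endothelial cells and bore on some contrasts. Their UMIs numbered 14068 in the endothelial cells, of which 14054 fell in 8 cells with at least 3 such UMIs, and they made up 0.102 to 43.5% of the UMIs of those cells. The level was 854 CPM in arterial, 15604 CPM in capillary and 14344 CPM in venous cells, compared with 41.0 CPM in all other brain cells. Hbb-bt, Hbb-bs, Hba-a1 and Hba-a2 were accordingly among the 12 largest ratios of venous over arterial cells, and Hba-a2 among the 12 of brain over lung endothelium. The 8 cells lay in the capillary (4), venous (3) and arterial (1) zones, and without them the 5 genes were at 14 UMIs in the other 309 cells, with 15.4 CPM in arterial, 14.0 CPM in capillary and 11.5 CPM in venous cells. Leaving the 8 cells out moved neither the transporter ratios nor the summed zone ratios by more than their counting intervals.

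Markers of other brain cells were low in most endothelial cells. At least 3 UMIs of oligodendrocyte lineage markers were seen in 49 cells (15.5%), of astroglial and stem cell markers in 33 (10.4%), of neuroblast markers in 28 (8.83%), of fibroblast markers in 5, of ependymal markers in 2 and of microglial or leukocyte markers in none. Summed neuroblast markers stood at 812 CPM in endothelial and 8676 CPM in the other brain cells, although 10 cells held 69.2% of the endothelial UMIs and the median cell 0, oligodendrocyte lineage markers at 388 and 4191 CPM, and astroglial and stem cell markers at 308 and 5153 CPM. Microglial markers held 5.55 CPM and leukocyte markers 0.793 CPM. With the 114 cells that carried 3 or more UMIs of any such list left out, 203 cells remained, and the transporter ratio over the other brain cells was 19.3. The ratio of arterial genes between arterial and venous cells was then 2.63, with 21 of 49 arterial and 87 of 133 venous cells left. Stmn2 and Gja1, both higher in arterial cells, are on the neuroblast and astroglial lists, so their UMIs counted towards the removal. Their part in that ratio was not tested. Scrublet marked 10 of the 317 cells as doublets (44 of 4151 brain cells, 1.06%), and 315 of the 317 cells fell in 1 of 18 clusters of the brain library.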

How the data were processed

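Nestin-GFP+ cells of mouse brain and lung were profiled with 10x Genomics 3′ v3 chemistry, 1 library per tissue. The deposited values are raw counts, in UMIs per gene and barcode, which the authors had not normalized. The submitters' processing notes name bcl2fastq 2.19.1.403, UMI-tools 1.0.0, STAR 2.7.1a, featureCounts 1.6.4 and mm10. The annotation release was not given in the sources used here. The methods' filter (over 200 and under 4000 genes, under 40% mitochondrial) was applied to the deposited counts.

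Counts were summed per group and expressed as CPM, with exact Poisson (levels), Clopper-Pearson (shares) and conditional binomial (ratios) 95% intervals, which cover counting error only, in Python 3.11.15 with scipy 1.17.1 and numpy 2.4.6. Ratios used genes with at least 50 UMIs over both groups and at least 10 expected in each, and a limit of 4-fold between groups and 2-fold between zones, where the first minimum did not apply. The calculation was tested on simulated data. Ratios against 0 UMIs used a floor of 3 counts per group.

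Other brain cells were classed by the marker list with most UMIs (at least 5), chosen after seeing the data, giving 2103 neuroblasts, 914 astroglial and stem cells, 378 oligodendrocyte lineage, 55 ependymal, 41 microglial and 8 fibroblast cells. Named genes were list members, the 25 highest and 10 lowest ratios over other brain cells at 100 CPM or more, and the 12 largest ratios each way between tissues and zones. The cells and lists were chosen with earlier results of these data known. Of 350 listed symbols, 341 were found as listed, 8 under an older symbol and 1, Unc5b, had no counts. Doublets were kept, and Scrublet (scanpy 1.11.5, expected rate 0.06) was an alternative, as were other cell and zone limits, clusters (Leiden, resolution 0.8), folds, filters and totals. RefSeq promoter windows are of GRCm38.p6, and only letters in the windows were searched. Values of some genes under the rule for named genes are not reported here.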

Additional observations from a re-analysis of the deposited data

How the results depend on the processing

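Across 101 comparisons with an alternative setting, 69 values stayed within their counting interval or 1.5 times the count and 32 moved. A change of direction was defined only for the 62 comparisons of ratios, of which 48 stayed, 14 moved and none changed direction. Leaving out cells with 3 or more UMIs of other classes left 203 cells, 21 of them arterial, and the transporter ratio over the other brain cells became 19.3, that of the general endothelial genes 130.02, the transporter ratio of brain over lung endothelium 8.95 and the arterial over venous ratio of arterial genes 2.63. The first of these was 18.3 without Scrublet doublets and 17.5 as a mean of per-cell CPM. The second was 127 without the upper limit of genes, 139.7 with clusters in place of the rule and 93.7 as a mean of per-cell CPM. The third was 8.56 with at least 10 endothelial UMIs. With at least 1, at least 3 and thinned anchor UMIs (1 random draw to 2000 UMIs), the arterial ratio was 2.77, 3.62 and 3.67 and the share of cells in a zone 92.4%, 73.8% and 77.0%, against 85.5%. With at least 3 anchor UMIs the capillary ratio was 1.34.

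Without Slc38a5 among the venous anchors, 52 arterial, 160 capillary and 47 venous cells were found, and the arterial and venous ratios were 3.24 and 1.80. At 8-fold, 365 genes were higher and 922 lower than in the other brain cells, 285 higher than in mural cells, and 173 higher and 277 lower than in lung. At 2-fold, the counts were 1278 and 3347, then 1035 higher and 893 lower for mural cells, and 777 and 1017 for lung. At 4-fold without the filter on low counts, 1244 genes were higher than in the other brain cells, 1229 lower than in mural cells and 933 higher than in lung, against 640, 523 and 289 with it. Leaving out haemoglobin-rich cells or the highest arterial cell, both chosen after seeing the data, moved no summed ratio beyond its counting interval, but without the latter Clu had an arterial over venous ratio of 1.33, under 2-fold, and Fbln5 51.4 CPM in arterial cells. No paired analysis was possible because each tissue had 1 library. Depth limits genes at 0 UMIs to 2.38 CPM in the endothelial cells and to 15.3 CPM in the arterial cells.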

Other observations

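Growth factor signalling genes were read from their roles. VEGF receptors stood high in the brain endothelial cells, with Kdr at 839 CPM (789 to 891) and the lymphatic and tip cell receptor Flt4 at 68.2 CPM, while the ligand Vegfa was at 6 UMIs and 72.6 CPM in the other brain cells. Pdgfb, the endothelial ligand that recruits pericytes, had 339.5 CPM (308 to 373) and 5.23 CPM in mural cells. Id1 and Id3, targets of BMP signalling, had 1583 and 1673 CPM and the BMP receptor Acvrl1 397 CPM. Of 22 signalling genes compared with the other brain cells, 14 were at least 4-fold higher and 2 lower (list median 5.74), where 5.93% and 18.6% of all genes compared were. Between brain and lung endothelium, where 3.36% of all genes compared were at least 4-fold higher and 5.88% lower, Vegfa, Dll4, Hey1 and Smad6 were lower in brain and none of 26 was higher (list median 0.874). Dll4 and Hey1 are also listed arterial genes. The arterial anchors Efnb2, Sema3g and Bmx had 920, 296 and 155 CPM in lung and 41.2, 63.5 and 25.4 CPM in brain. Gkn3 ran the other way, at 34.1 and 250 CPM, and Vegfc had 61.4 and 55.5 CPM. The part of the mix of vessel zones was not tested. Of 11 tip cell and angiogenic genes, 7 were at least 4-fold lower in brain than in lung endothelium (list median 0.219), whereas Apln and Pdgfb were 2.17-fold and 2.16-fold higher in brain. Hey1 had 46.8 CPM in brain and 422 CPM in lung. Basement membrane genes summed to 9119 CPM against 1704 CPM in the other brain cells, with 8 of 14 higher, led in sum by Sparc at 4678 CPM, and 2 of 15 were lower than in lung.

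Immune and adhesion genes were measured next. The class I genes H2-D1, H2-K1 and B2m had 708, 416 and 595 CPM in the brain endothelial cells and 51.9, 46.3 and 48.9 CPM in the other brain cells, whereas the class II genes Cd74 and H2-Aa had 2 and 0 UMIs. Of 14 genes compared, 9 were at least 4-fold higher (list median 12.9), where 5.93% of all genes were, and 3 were lower, a share near the 18.6% of all genes. Between brain and lung endothelium, 1 of 15, Ly6e, was at least 4-fold higher, which is near the 3.36% of all genes. Cell cycle genes held 183 CPM against 1948 CPM in the other brain cells, with 11 of 14 at least 4-fold lower, where 18.6% of all genes were. Immediate-early genes, which are known to respond to tissue dissociation, held 4614 CPM against 1819 CPM in the other brain cells and 9537 CPM in lung endothelial cells, and 3071, 4042 and 5161 CPM in arterial, capillary and venous cells. Junb had 142, 178 and 416 CPM in those zones and Ier3, a listed venous gene, 35.6, 162 and 237 CPM, and the part of dissociation in either was not tested.

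Some genes differed among the venous cells. The 64 venous cells with a Nr2f2 UMI (median 5119 UMIs) were set beside the 69 without (median 3855 UMIs), a split chosen after the values were seen. The summed venous genes were nearly level, with a ratio of 1.09 (1.03 to 1.15), as were the capillary genes, at 0.952 (0.911 to 0.995). The genes named next were picked for their large ratios. Venous Emcn (0.705) and Csrp2 (0.788) and capillary Itih5 (1.60) and Slc2a1 (1.21) were among the genes that went against their lists. Vwf had 316 CPM with and 136 CPM without Nr2f2, a ratio of 2.33 (1.60 to 3.44), and Ctsc had a ratio of 2.16. Cxcl12 went the other way, with 493 CPM with and 1050 CPM without (ratio 0.470), as did Rgcc (0.448) and Ivns1abp (0.492). The cells with Nr2f2 were deeper, and their mural markers summed to 287 CPM against 67.9 CPM without Nr2f2, a ratio of 4.22 (2.59 to 7.21). The part of depth and of mural RNA was not tested.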
